A study of Mus musculus with 8 samples.

Results

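The mitochondrial genome of the mouse encodes 37 genes, all of which carry symbols that begin with mt-, and the levels of their transcripts were compared between wild-type cells and cells that lack Argonaute 2 (Ago2), a small-RNA-guided silencing protein. The 37 genes were found by symbol among the 55487 genes of the count table. They comprise 13 protein-coding, 2 ribosomal RNA (rRNA) and 22 transfer RNA (tRNA) genes. The cells were LLC cells, a mouse Lewis lung carcinoma line, grown in culture. The study used them to ask how tumor cell Ago2 affects antitumor immunity. RNA was sequenced from 4 wild-type and 4 Ago2 knock-out (ΔAgo2) libraries, all labelled as batch 1 and as biological replicates, although the labels do not say whether these came from separate cultures. If they did not, the p-values measure only the spread between these libraries. The knock-out was made with lentiviral CRISPR-Cas9 and puromycin selection, and clones of single cells were sorted. Which clone gave the RNA, and whether the wild-type cells carried a vector, is not given in the sources used here. A clone and its genotype therefore cannot be told apart.

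Mitochondrial DNA is a small circle transcribed from both strands into long precursors that run through most of its genes. The tRNAs lie between the mRNAs and rRNAs and mark where the precursors are cut, and the freed mRNAs mostly receive a poly(A) tail. The proteins are core subunits of respiratory complexes I, III and IV and of the ATP synthase (complex V), and the proteins that transcribe, process and translate these RNAs are encoded in the nucleus. Of the 37 genes, 28 lie on the plus strand of the reference, and 9 lie on the minus strand, namely mt-Nd6 and 8 tRNA genes. Transcripts of opposite strands are complementary and can pair into double-stranded RNA, which the helicase Supv3l1 and the exonuclease Pnpt1 remove.

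Wild-type libraries held 40740643 to 68530912 counts and ΔAgo2 libraries 39628101 to 57595675. Ago2 itself was at 119 to 520 CPM in wild-type and 293 to 408 CPM in ΔAgo2 cells. CPM are counts scaled to library totals and TMM factors by edgeR. Over all 8 libraries the Ago2 transcript thus told the genotypes apart in neither direction, and genotype here means the labelled one. Its range without wild-type replicate 4, which stood apart (below), is not given. The study examined the knock-out at the level of Ago2 protein, by western blot, which transcript counts do not measure. The markers of the labelled line were mixed. Vim and Fn1, mesenchymal genes, reached 6076 and 3632 CPM in their highest library. The 4 mesenchymal markers together summed to 4830 to 8432 CPM in wild-type and 6732 to 7636 CPM in ΔAgo2 cells. Epcam and Cdh1, defining epithelial genes, stayed at or below 0.0203 and 0.183 CPM. They were among 6 epithelial markers, of which 3 passed the filter on low counts, and the sum of the 6 is given below. Of 14 markers of leukocytes, endothelium, fibroblasts and muscle, only Cd3e and Myh6 were at 0 in every library. The filter on low counts passed 4 of the 14, so such cells were not excluded. The markers together summed to 39.4 to 115 CPM in wild-type replicates 1 to 3, to 26.1 in wild-type replicate 4 and to 48.6 to 105 CPM in ΔAgo2 cells. Wild-type replicate 4 stood apart from the other libraries: its TMM factor was 0.791, and its epithelial keratin-led marker sum was 1259 CPM against 114 to 312 in wild-type replicates 1 to 3 and 313 to 509 in ΔAgo2 cells. Fitted fold changes and group shares are therefore also given without it. The library was also known beforehand for its low share of mitochondrial counts. A shift of the members when it is left out is therefore no separate result.

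The counts on the mitochondrial genes differed more between wild-type libraries than between genotypes. In wild-type replicates 1 to 4 they made up 4.51%, 2.98%, 4.00% and 0.540% of all counts. In ΔAgo2 replicates 1 to 4 they made up 2.91%, 2.40%, 2.72% and 2.39%. Wild-type replicate 4 was the lowest of the 8 libraries by a wide margin, with an exact 95% binomial interval of 0.538% to 0.543% that covers counting error only. The means were 3.00 ± 1.76% (SD, n = 4) in wild-type and 2.60 ± 0.255% (SD, n = 4) in ΔAgo2 cells, so the groups overlapped. In bulk RNA, fewer cells rich in mitochondrial RNA and less of it per cell cannot be told apart. Without wild-type replicate 4 the wild-type mean was 3.83 ± 0.779% (SD, n = 3), and each of those 3 libraries lay above each ΔAgo2 library. On the TPM scale, which divides counts by gene length, the shares were 10.2%, 8.23%, 9.70% and 1.21% in wild-type and 7.89%, 6.29%, 6.59% and 6.15% in ΔAgo2 replicates 1 to 4.

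**Figure D1:**
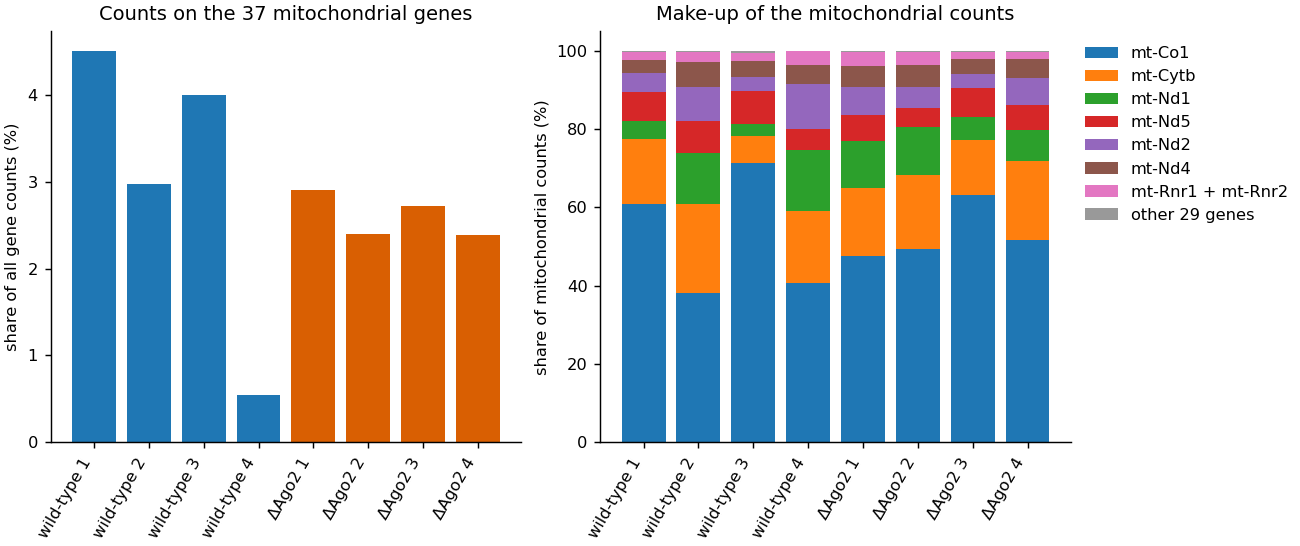
The left panel shows the percentage of all gene counts that fell on the 37 mitochondrial genes in each library (wild-type in blue, ΔAgo2 in orange), and the right panel divides the mitochondrial counts of each library among genes, in percent. Wild-type replicate 4 stood at 0.540%, against 2.39% to 4.51% in the other libraries, and mt-Co1 filled 38.1% to 71.4% of the mitochondrial counts.

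A small number of mRNAs supplied nearly all of these counts. Protein-coding genes took 97.3 ± 0.699% of the mitochondrial counts in wild-type and 97.3 ± 0.920% in ΔAgo2 cells (SD, n = 4 each). The mRNA of mt-Co1, the catalytic subunit of cytochrome c oxidase (complex IV), alone took 61.0%, 38.1%, 71.4% and 40.8% in wild-type replicates 1 to 4 and 47.7%, 49.5%, 63.1% and 51.7% in ΔAgo2 replicates 1 to 4. Its share spread more widely among wild-type than among ΔAgo2 libraries. The complex I genes together took 28.4 ± 9.79% in wild-type and 26.6 ± 4.45% in ΔAgo2 cells, and mt-Cytb, the cytochrome b of complex III, took 16.1 ± 6.66% and 17.6 ± 2.52% (SD, n = 4 each). In wild-type replicates 1 to 3 the protein-coding share was 97.7 ± 0.325%, that of complex I 25.4 ± 9.52% and that of mt-Cytb 15.4 ± 7.97% (SD, n = 3).

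The rRNAs held 2.62 ± 0.706% of the mitochondrial counts in wild-type and 2.68 ± 0.909% in ΔAgo2 cells, and the 22 tRNA genes together held 0.0329 ± 0.0124% and 0.0250 ± 0.0113% (SD, n = 4 each). Wild-type replicates 1 to 3 had an rRNA share of 2.29 ± 0.337% and a tRNA share of 0.0345 ± 0.0147% (SD, n = 3). The library kit selects poly(A) RNA, tRNAs carry no such tail, and the authors aligned reads to an rRNA database before the genome. These shares are therefore not the shares in the cell, and their order between RNA classes was read no further.

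Levels of different genes were compared on the TPM scale, as medians over the 8 libraries. mt-Co1 was highest at 29585 TPM, and ranked between 1 and 25 among all genes of a library. mt-Cytb followed at 13916 TPM, mt-Nd1 at 6879.6, mt-Nd2 at 5152, mt-Nd5 at 3712 and mt-Nd4 at 3329.6 TPM. These mt-Nd genes encode membrane subunits of complex I. The order of mt-Co1 over mt-Cytb held in 8 of 8 libraries, that of mt-Cytb over mt-Nd1 and of mt-Nd1 over mt-Nd2 in 7 each, and that of mt-Nd2 over mt-Nd5 in 6. mt-Nd5 was above mt-Nd4 in 4 of 8 libraries, so their order was not resolved. mt-Nd6, the complex I mRNA of the minus strand, was at 309 TPM. The large-subunit rRNA mt-Rnr2 was at 1198 TPM and the small-subunit rRNA mt-Rnr1 at 663 TPM. Poly(A) selection and the alignment to an rRNA database may affect both rRNA values, so they were not ranked against the mRNAs.

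The remaining 6 protein-coding genes were far below the others. All of them lie in a stretch whose aligned parts are nearly identical to a copy in nuclear DNA. mt-Co3 was at 29.7 TPM, mt-Atp6 at 13.4, mt-Nd3 at 7.22, mt-Atp8 at 6.88 and mt-Nd4l at 1.62 TPM. mt-Co2, below mt-Co3 and above mt-Atp6 in 8 of 8 libraries, ran from 3.02 to 35.6 TPM. These genes encode subunits of the same complexes as the abundant mRNAs: mt-Co2 and mt-Co3 of complex IV, mt-Atp6 and mt-Atp8 of the ATP synthase, and mt-Nd3 and mt-Nd4l of complex I. Among the 5 protein-coding genes with no base in the stretch, the medians ran from 309 to 13916 TPM. The 6 genes wholly inside it ran from 1.62 to 29.7 TPM, with 51.97 TPM as the highest value in any library. Single libraries of the 2 sets overlapped, since mt-Nd6, outside the stretch, was at 13.4 TPM in wild-type replicate 4.

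The copy lies on the minus strand of chromosome 1 (chr1:24611535-24616197 in GRCm38, which is mm10) and consists of 7 adjacent annotated pseudogenes. It corresponds to the mitochondrial span chrM:6390-11042, from within mt-Co1 to within mt-Nd4. Over 4140 aligned bases of GENCODE vM21 transcripts, the pseudogenes differed from the mitochondrial genes at 2 bases. These are A1066T between mt-Co1 and Gm29216 and T3C between mt-Nd3 and Gm28438, counted from the first base of the mitochondrial gene, whose base is given first. The span holds 31.3% of mt-Co1 and 63.6% of mt-Nd4, and all of 5 tRNA genes (mt-Ts1, mt-Td, mt-Tk, mt-Tg and mt-Tr). These tRNA genes and mt-Atp8 are shorter than the 250 aligned bases required. They were placed in the span by position, without an aligned copy of their own.

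The edges of the copied span are shown because mt-Co1 and mt-Nd4 are partly unique, and capitals mark the part that is also on chromosome 1. The first is bases 1003 to 1122 of mt-Co1 (chrM:5328-6872, plus strand) and the second is bases 817 to 936 of mt-Nd4 (chrM:10167-11544, plus strand), both 5′ to 3′.
mt-Co1: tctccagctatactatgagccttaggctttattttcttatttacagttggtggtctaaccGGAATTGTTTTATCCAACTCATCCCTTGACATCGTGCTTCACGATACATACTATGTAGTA
mt-Nd4: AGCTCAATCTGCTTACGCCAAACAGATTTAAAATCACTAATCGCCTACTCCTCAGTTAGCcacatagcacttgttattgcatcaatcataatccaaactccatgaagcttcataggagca

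Most reads from inside the span cannot be placed by their sequence. The first 120 bases of mt-Co2 (chrM:7013-7696, plus strand) are printed beside those of its chromosome 1 copy Gm28661, which has 0 differences in this stretch, and of Gm13341, a copy on chromosome 2 that is 95.9% identical to mt-Co2 over its aligned length and has 2 differences here, in capitals.
mt-Co2: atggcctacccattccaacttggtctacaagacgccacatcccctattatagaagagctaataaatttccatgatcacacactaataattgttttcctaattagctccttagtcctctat
Gm28661: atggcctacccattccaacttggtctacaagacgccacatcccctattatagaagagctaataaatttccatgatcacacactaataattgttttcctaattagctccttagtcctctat
Gm13341: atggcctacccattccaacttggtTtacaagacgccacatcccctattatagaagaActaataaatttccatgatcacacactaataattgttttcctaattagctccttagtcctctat

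The counts on the copies were of the same order as those on the members inside the span. Gm28661 held 35 to 450 counts per library and mt-Co2 30 to 388, and the copy was above the member in 7 of 8 libraries. For 3 pairs the copy exceeded the member in all 8 libraries: Gm10925 held 2.64 to 3.75 times the counts of mt-Atp6, Gm28438 held 1.33 to 8.38 times those of mt-Nd3, and Gm10222 held 5 to 68 counts against 0 to 16 for mt-Nd4l. Gm28437 was below mt-Co3 in every library, at 0.425 to 0.679 times its counts. The setting for reads that match more than 1 place is not given in the sources used here. How many reads of this span were dropped or split was not tested, so the TPM of these 6 genes may not be read as their level.

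Of the mitochondrial counts, the members wholly inside the span held 0.0557 ± 0.0153% in wild-type and 0.0539 ± 0.00268% in ΔAgo2 cells (SD, n = 4 each), and 0.0497 ± 0.0117% (SD, n = 3) in wild-type replicates 1 to 3. For mt-Co1 and mt-Nd4 the length that is scored matters. If every count of mt-Co1 fell on its 1062 bases outside the span, its median level would be 12340 in place of 8482 RPKM (counts scaled to gene length and to the library total), and that of mt-Nd4 on its 502 bases would be 2807 in place of 1023 RPKM. On that scale the median of mt-Nd4 lay above those of mt-Nd1, mt-Nd2 and mt-Nd5, at 2109, 1490.2 and 1073 RPKM, and below that of mt-Cytb, at 4062 RPKM.

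**Figure D2:**
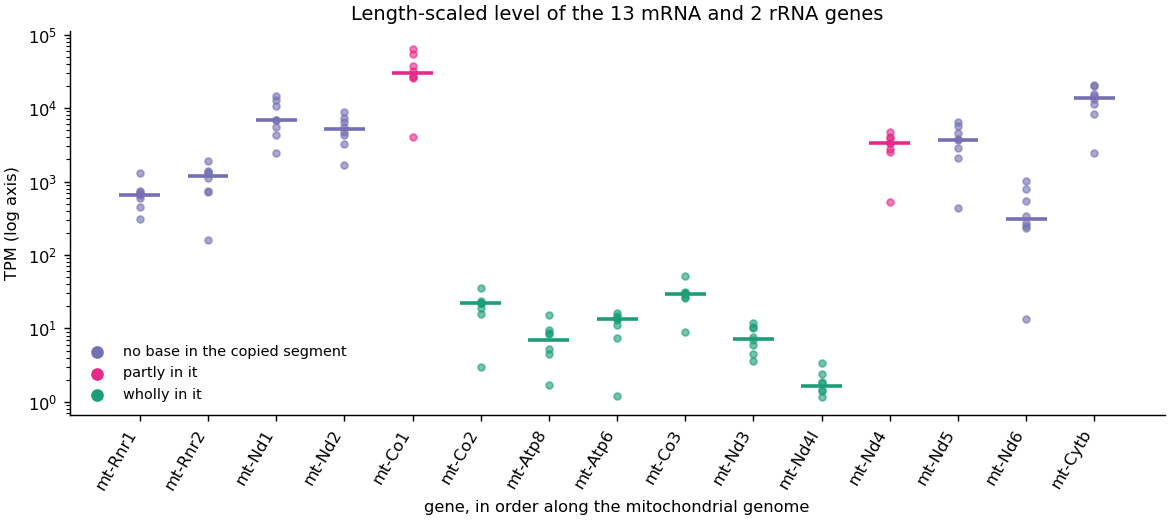
TPM on a log axis of the 13 protein-coding and 2 rRNA genes in genome order, with 1 point per library and a bar at the median of the 8 libraries; values of 0 (mt-Atp8 and mt-Nd4l in wild-type replicate 4) are not drawn as points. The 6 genes wholly inside the span copied on chromosome 1 had medians of 1.62 to 29.7 TPM, and the 5 protein-coding genes outside it 309 to 13916 TPM.

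Of the 37 genes, 18 passed edgeR's filter on low counts: 12 protein-coding genes, both rRNAs and the tRNAs mt-Tq, mt-Tw, mt-Tt and mt-Tp. Between genotypes, 0 of the 18 passed an adjusted p of 0.05 (quasi-likelihood test of edgeR, Benjamini-Hochberg over all genes), where 0.295% of the 14228 tested genes did. In DESeq2 0 of the 18 passed, against 2.23% of genes. At an unadjusted p of 0.05 edgeR returned 1 member, mt-Tt, against 7.34% of genes. No tested member had groups that did not overlap in CPM, against 6.07% of genes.

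The fitted log2 fold changes (ΔAgo2 over wild-type) ran from -1.35 to 0.25, with standard errors of 0.35 to 0.94. Their median was -0.24, and that of all tested genes was -0.11. Values below 0 were found for 16 of the 18 members and for 58.8% of all genes. This count depended on how the libraries were scaled and averaged. It was 14 with library totals alone and 11 with the counts scaled to the mitochondrial total. That last scaling makes the members' total alike in all libraries, so it cannot show a shift of the whole family. It was 3 in limma on log2(TPM + 1) and 2 on log2(TPM + 0.1), where the median of the members was 0.24 and 0.30, and in these fits too 0 members passed. The count was 9 with the replicate block, 17 without ΔAgo2 replicate 1, and 18 with the GC correction, alone or with that block. The share of all genes below 0 is not given for these other settings. No direction is therefore given for the family.

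Without wild-type replicate 4, 17 of the 18 members had a value below 0, against 54.2% of genes, and the median was -0.52, against -0.04 over all genes. Leaving out a wild-type library that was low for the members lowers their values by construction. Unadjusted p values were under 0.05 for 4 members, mt-Nd5, mt-Nd6, mt-Tt and mt-Tp, against 12.6% of genes. The adjusted p values of the members ran from 0.219 to 0.973 in this fit of edgeR, and 0.777% of all genes passed. The groups did not overlap for mt-Nd4 and mt-Nd5, both lower in ΔAgo2 cells, against 6.09% of genes that were lower without overlap among these 7 libraries.

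**Figure D3:**
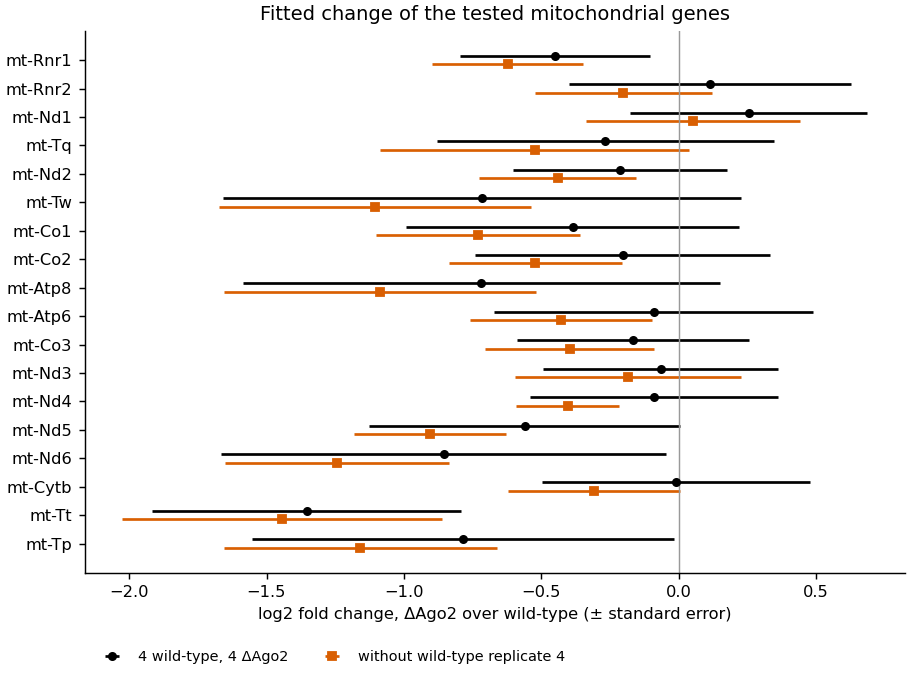
Fitted log2 fold change of ΔAgo2 over wild-type for the 18 tested members in genome order, with bars of 1 standard error, from all 8 libraries (black circles) and without wild-type replicate 4 (orange squares). Every member moved toward lower values without that library, and mt-Nd1 alone stayed above 0, at 0.05; in limma on TPM from all 8 libraries most values lay above 0.

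Among the complex IV mRNAs, mt-Co1 (ENSMUSG00000064351.1) was at 27646, 10215, 29068 and 2789 CPM in wild-type replicates 1 to 4 and at 13011, 11184, 17163 and 11988 CPM in ΔAgo2 replicates 1 to 4. Wild-type replicates 1 and 3 were higher and wild-type replicate 4 lower than every ΔAgo2 library, and wild-type replicate 2 was also below them. The log2 fold change was -0.39 ± 0.61 (SE, adjusted p = 0.886 in edgeR), and -0.73 without wild-type replicate 4. mt-Co2 was at 7.89, 3.88, 4.65 and 0.931 CPM in wild-type and 4.00, 2.99, 4.44 and 3.65 CPM in ΔAgo2 replicates 1 to 4. mt-Co3 was at 13.2, 6.16, 6.12 and 3.14 CPM in wild-type and 6.53, 6.49, 6.79 and 5.73 CPM in ΔAgo2 replicates 1 to 4. In both, wild-type replicate 1 was the highest and wild-type replicate 4 the lowest of the 8 libraries, and the ΔAgo2 libraries lay between them. The log2 fold changes of mt-Co2 and mt-Co3 were -0.20 and -0.17, and -0.52 and -0.40 without wild-type replicate 4.

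mt-Cytb was at 7462, 6103, 2817 and 1243 CPM in wild-type and 4738, 4239, 3865 and 4657 CPM in ΔAgo2 replicates 1 to 4. The ΔAgo2 libraries lay within a narrow range, with wild-type libraries on both sides of it. Its log2 fold change was -0.01 ± 0.49 (SE, adjusted p = 0.997 in edgeR), and -0.31 without wild-type replicate 4. The ratio of mt-Co1 to mt-Cytb counts was 3.70, 1.67, 10.3 and 2.24 in wild-type and 2.75, 2.64, 4.44 and 2.57 in ΔAgo2 replicates 1 to 4. The 2 abundant plus-strand mRNAs thus did not keep a fixed ratio, and wild-type replicates 2 and 3 marked its ends. The ratio within wild-type replicate 4, the library with the low mitochondrial share, lay between those of other wild-type libraries.

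**Figure D4:**
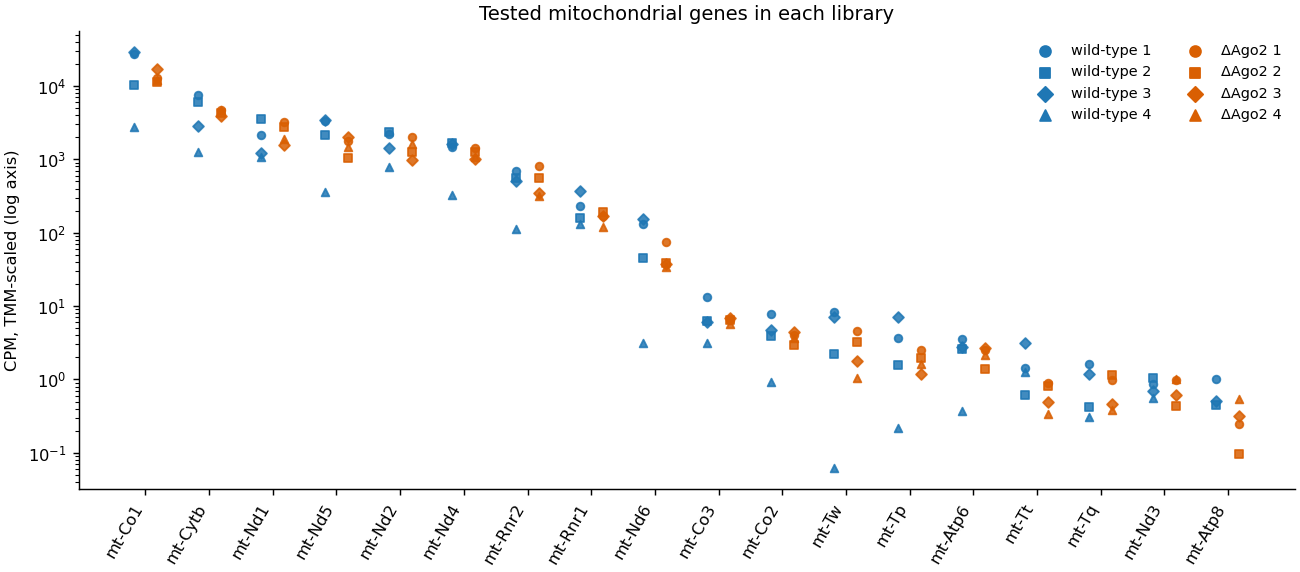
CPM on a log axis of the 18 tested members in each library, ordered by mean level, with wild-type in blue and ΔAgo2 in orange and 1 marker shape per replicate number; mt-Atp8 in wild-type replicate 4, at 0 counts, is not drawn. Wild-type replicate 4 (blue triangles) was the lowest of the 8 libraries for 15 of the 18 members, the exceptions being mt-Rnr1, mt-Nd3 and mt-Tt.

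Among the complex I mRNAs of the plus strand, mt-Nd1 was at 2129, 3534, 1218 and 1068 CPM in wild-type and 3269, 2796, 1555 and 1867 CPM in ΔAgo2 replicates 1 to 4. Its log2 fold change of 0.25 ± 0.43 (SE, adjusted p = 0.896 in edgeR) was the highest among the members, and was 0.05 without wild-type replicate 4. mt-Nd2, the next gene along the precursor that codes for a protein, was at 2197, 2381, 1443 and 794 CPM in wild-type and 2014, 1243, 992 and 1629 CPM in ΔAgo2 replicates 1 to 4, with a log2 fold change of -0.21, or -0.44 without wild-type replicate 4. The ranges of the genotypes overlapped for both genes.

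mt-Nd5 (ENSMUSG00000064367.1) was at 3342, 2128, 3471 and 363 CPM in wild-type and 1761, 1055, 2039 and 1455 CPM in ΔAgo2 replicates 1 to 4. Wild-type replicates 1 to 3 were above every ΔAgo2 library, and wild-type replicate 4 was below all of them. The log2 fold change was -0.56 ± 0.57 (SE, adjusted p = 0.818 in edgeR), and without wild-type replicate 4 it was -0.91 ± 0.28 (SE, adjusted p = 0.219). mt-Nd4 showed the same arrangement at a smaller size, with 1479.7, 1674, 1616 and 323 CPM in wild-type and 1409, 1269, 1012 and 1095 CPM in ΔAgo2 replicates 1 to 4. Its log2 fold change was -0.09 with and -0.40 without wild-type replicate 4 (adjusted p = 0.969 and 0.417, edgeR). mt-Nd3 was low in every library, at 0.559 to 1.05 CPM in wild-type and 0.428 to 1.00 CPM in ΔAgo2 cells, with overlapping ranges and a log2 fold change of -0.07, or -0.18 without wild-type replicate 4. mt-Nd4l was under the filter, with 16, 10, 14 and 0 counts in wild-type and 7, 4, 5 and 8 counts in ΔAgo2 replicates 1 to 4.

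The ATP synthase mRNAs mt-Atp8 and mt-Atp6 overlap by 43 bases and are translated from 1 transcript. The sequence of mt-Atp8 (chrM:7766-7969, plus strand) is shown with the bases it shares with the start of mt-Atp6 in capitals, where a read could be given to either gene.
mt-Atp8: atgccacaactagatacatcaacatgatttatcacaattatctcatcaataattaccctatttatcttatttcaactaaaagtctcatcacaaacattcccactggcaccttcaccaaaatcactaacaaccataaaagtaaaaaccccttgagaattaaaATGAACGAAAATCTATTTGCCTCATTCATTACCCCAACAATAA

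mt-Atp6 was at 3.60, 2.56, 2.73 and 0.373 CPM in wild-type and 2.52, 1.40, 2.65 and 2.16 CPM in ΔAgo2 replicates 1 to 4. mt-Atp8 held 50, 32, 34 and 0 counts in wild-type and 15, 4, 13 and 29 counts in ΔAgo2 replicates 1 to 4. Wild-type replicate 4 was lowest for both genes, and the other wild-type libraries overlapped the ΔAgo2 libraries. The log2 fold changes were -0.09 ± 0.58 (SE) for mt-Atp6 and -0.72 ± 0.87 (SE) for mt-Atp8, with adjusted p = 0.977 and 0.843 in edgeR. Without wild-type replicate 4 they were -0.43 and -1.09 (adjusted p = 0.626 and 0.470, edgeR).

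Of the rRNAs, which form the cores of the mitochondrial ribosomal subunits, mt-Rnr1 was at 228, 159, 365 and 133 CPM in wild-type and 171, 189.7, 167 and 121 CPM in ΔAgo2 replicates 1 to 4. mt-Rnr2 was at 701, 559, 512 and 113 CPM in wild-type and 810.2, 562, 348 and 320.4 CPM in ΔAgo2 replicates 1 to 4. Wild-type replicate 4 was far below the others for mt-Rnr2 but not for mt-Rnr1, where ΔAgo2 replicate 4 was the lowest. The log2 fold changes were -0.45 ± 0.35 (SE, adjusted p = 0.766) for mt-Rnr1 and 0.11 ± 0.51 (SE, adjusted p = 0.966) for mt-Rnr2 in edgeR. Without wild-type replicate 4 they were -0.62 and -0.20 (adjusted p = 0.398 and 0.836, edgeR), so the sign of mt-Rnr2 rested on that library. The ratio of mt-Rnr2 to mt-Rnr1 counts was 3.07, 3.52, 1.40 and 0.851 in wild-type and 4.75, 2.96, 2.08 and 2.66 in ΔAgo2 replicates 1 to 4, although both are cut from the same precursor. Whether the rRNA database used before alignment held the mitochondrial rRNAs is not given in the sources used here.

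mt-Nd6 (ENSMUSG00000064368.1) is the only mRNA of the minus strand, and its gene (chrM:13552-14070) shares 14 bases with mt-Nd5 on the opposite strand. It was at 132, 45.7, 152 and 3.14 CPM in wild-type and 73.6, 39.1, 37.6 and 33.9 CPM in ΔAgo2 replicates 1 to 4. Wild-type replicates 1 and 3 were above every ΔAgo2 library, wild-type replicate 2 lay within their range and wild-type replicate 4 far below it. The log2 fold change was -0.86 ± 0.81 (SE, adjusted p = 0.809 in edgeR), and without wild-type replicate 4 it was -1.24 ± 0.41 (SE, adjusted p = 0.255). In limma on log2(TPM + 1) its value was 0.27.

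As a share of the mitochondrial counts, mt-Nd6 was at 0.292%, 0.170%, 0.374% and 0.0459% in wild-type and 0.270%, 0.173%, 0.138% and 0.146% in ΔAgo2 replicates 1 to 4. The share was thus lowest in the library with the lowest mitochondrial total, and the groups overlapped. The means were 0.220 ± 0.143% in wild-type and 0.182 ± 0.0605% in ΔAgo2 cells (SD, n = 4 each), and 0.279 ± 0.103% (SD, n = 3) for wild-type replicates 1 to 3. mt-Nd5, its plus-strand neighbor, had 25.3, 46.6, 22.8 and 116 times its counts in wild-type and 23.9, 27.0, 54.3 and 42.9 times its counts in ΔAgo2 replicates 1 to 4. The strand setting of the counting is not given in the sources used here, so how many reads of 1 strand were scored on the other was not tested.

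**Figure D5:**
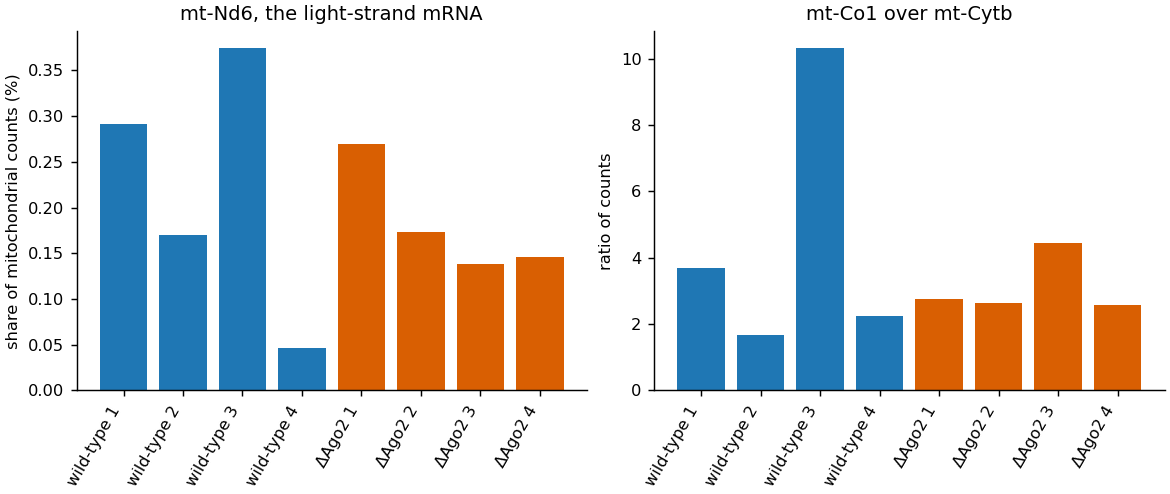
The left panel shows mt-Nd6 as a percentage of the mitochondrial counts and the right panel the ratio of mt-Co1 to mt-Cytb counts in each library (wild-type in blue, ΔAgo2 in orange). The mt-Nd6 share spanned 0.0459% to 0.374% in wild-type and 0.138% to 0.270% in ΔAgo2 libraries, and the ratio spanned 1.67 to 10.3 and 2.57 to 4.44, respectively.

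The tRNA genes summed to 781, 370, 1341 and 62 counts in wild-type and 606, 316, 168 and 188 in ΔAgo2 replicates 1 to 4. Counts were found on 13 of the 22 tRNA genes. Those for phenylalanine, valine, aspartate, lysine, glycine, arginine and histidine, and 1 each of the serine and leucine tRNAs (mt-Tf, mt-Tv, mt-Td, mt-Tk, mt-Tg, mt-Tr, mt-Th, mt-Ts2 and mt-Tl2), were at 0 in every library. For each of these 9 genes a count of 0 in 411852022 counts allows up to 0.00728 CPM of counted reads, a floor of 3 counts over all libraries that covers counting error only. It sets no limit on the tRNA in the cell. The 9 genes are shorter than the reads, tRNAs carry no poly(A) tail, and mt-Td, mt-Tk, mt-Tg and mt-Tr lie in the copied span. mt-Tl1, mt-Tn, mt-Tc and mt-Ts1 had at most 2 counts in a library. The genes mt-Ti, mt-Tm, mt-Ta, mt-Ty and mt-Te, for isoleucine, methionine, alanine, tyrosine and glutamate, also failed the filter, with up to 39 counts in a library (mt-Ta in wild-type replicate 3).

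The 4 tRNAs that passed the filter are shown because they carried most of the tRNA counts. The sequences are whole genes from GENCODE vM21, 5′ to 3′ on their own strand, with the anticodon in capitals. mt-Tq (glutamine) is at chrM:3772-3842 on the minus strand, mt-Tw (tryptophan) at chrM:4950-5016 on the plus strand, mt-Tt (threonine) at chrM:15289-15355 on the plus strand and mt-Tp (proline) at chrM:15356-15422 on the minus strand. Each is 67 or 71 bases long, shorter than the 100-base reads.
mt-Tq: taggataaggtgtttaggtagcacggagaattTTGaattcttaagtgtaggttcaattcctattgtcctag
mt-Tw: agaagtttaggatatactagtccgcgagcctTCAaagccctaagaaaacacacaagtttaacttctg
mt-Tt: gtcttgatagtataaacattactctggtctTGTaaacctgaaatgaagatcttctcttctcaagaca
mt-Tp: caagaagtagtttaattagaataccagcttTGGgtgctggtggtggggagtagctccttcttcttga

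mt-Tt (ENSMUSG00000064371.1) had the lowest log2 fold change among the members. It was at 1.44, 0.609, 3.16 and 1.27 CPM in wild-type and 0.895, 0.808, 0.490 and 0.340 CPM in ΔAgo2 replicates 1 to 4, from 18 to 213 counts a library. Wild-type replicates 1, 3 and 4 were above every ΔAgo2 library, and wild-type replicate 2 lay among them. The value was -1.35 ± 0.56 (SE, adjusted p = 0.637 in edgeR) with and -1.44 (adjusted p = 0.356) without wild-type replicate 4. The lowest adjusted p among the members in DESeq2, 0.276, was also that of mt-Tt.

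mt-Tp, which abuts mt-Tt on the other strand, was at 3.66, 1.59, 7.09 and 0.217 CPM in wild-type and 2.51, 1.97, 1.18 and 1.65 CPM in ΔAgo2 replicates 1 to 4. mt-Tw was at 8.17, 2.22, 7.04 and 0.0621 CPM in wild-type and 4.56, 3.28, 1.79 and 1.04 CPM in ΔAgo2 replicates 1 to 4. In both genes wild-type replicates 1 and 3 were high, and wild-type replicate 4, with 7 and 2 counts, was the lowest. mt-Tq was at 1.65, 0.425, 1.19 and 0.310 CPM in wild-type and 0.993, 1.14, 0.466 and 0.378 CPM in ΔAgo2 replicates 1 to 4, with overlapping groups. The log2 fold changes were -0.78, -0.72 and -0.27 for mt-Tp, mt-Tw and mt-Tq, with adjusted p values of 0.815, 0.858 and 0.926 in edgeR. In the fit that left out wild-type replicate 4 they were -1.16, -1.11 and -0.52. A read that covers a tRNA of this length also covers its neighbors, and how such reads were assigned is not given in the sources used here.

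By the median, the members varied more among replicates than nuclear genes did, which were not matched to them for level or GC content. The median SD of log2 CPM was 1.19 for the 18 members and 0.80 for 14210 tested nuclear genes in wild-type, 0.63 and 0.43 in wild-type replicates 1 to 3, and 0.45 and 0.24 in ΔAgo2 cells. Single members ran from 0.11 to 1.01 in ΔAgo2 cells, where mt-Co3 (0.11), mt-Cytb (0.14) and mt-Nd4 (0.21) were under the nuclear median. The largest SD in wild-type, 3.18, was that of mt-Tw, with 2 counts in wild-type replicate 4. The low level in wild-type replicate 4 was shared by nuclear genes of like base composition. Relative to wild-type replicates 1 to 3, its median log2 difference was -2.34 for the 18 members, -1.76 for 3511 nuclear genes in the same range of GC content (31.9% to 44.8%) and -0.03 for all tested nuclear genes. Wild-type replicate 4 was the lowest library for 37.1% of all tested genes. The part of base composition in the members' values was not tested further than by a fit with GC-corrected libraries, in which 18 of 18 members had a value below 0 and 0 passed an adjusted p of 0.05. The share of all genes below 0 in that fit is not given here.

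The nuclear genes of mitochondrial gene expression were examined beside them. Of 12 genes of transcription and the nucleoid, 17 of mitochondrial DNA replication, 20 of RNA processing and tRNA modification, 15 of mRNA stability and decay, 14 of translation, 20 aminoacyl-tRNA synthetases, 8 regulators of biogenesis and 77 genes of the mitochondrial ribosome that were tested, 0 passed an adjusted p of 0.05 in edgeR, against 0.295% of all genes. At an unadjusted p of 0.05 in edgeR, 3 of 77 ribosomal genes, 1 of 15 stability genes and 1 of 20 synthetases were lower. Of the listed genes 0 were higher. Over all genes 4.62% were lower and 2.72% higher. Tfam and Tfb1m each stood on more than 1 list. The median log2 fold changes of these lists lay between -0.33 (mitochondrial ribosome) and 0.19 (transcription and nucleoid). Without wild-type replicate 4 all 8 medians lay between -0.07 and 0.02. In that library the ribosomal list summed to 6429 CPM, against 2714 to 3072 in wild-type replicates 1 to 3 and 2720 to 2988 in ΔAgo2 cells, while the mitochondrially encoded genes were low in it.

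Polrmt, the mitochondrial RNA polymerase, was at 39.8 to 50.3 CPM in wild-type replicates 1 to 3, 128 in wild-type replicate 4 and 35.2 to 46.2 CPM in ΔAgo2 cells. Tfam, which packs mitochondrial DNA and starts its transcription, was at 28.6 to 60.6, 28.7 and 46.1 to 67.2 CPM in the same order. The initiation factor Tfb2m was at 23.5 to 34.0, 7.58 and 24.6 to 31.6 CPM. Wild-type replicate 4 thus lay above the other libraries for Polrmt and below them for Tfb2m. The log2 fold changes were -0.65, 0.44 and 0.24 for Polrmt, Tfam and Tfb2m, with adjusted p of 0.739, 0.748 and 0.897 in edgeR. Without wild-type replicate 4 they were -0.08, 0.32 and -0.05, so the size for Polrmt and the sign for Tfb2m rested on that library. The elongation factor Tefm had a log2 fold change of 0.33 and Mterf3, which lowers transcription, of 0.15, against 0.15 and -0.17 without wild-type replicate 4.

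Of the genes that cut the precursors, Elac2, which frees the 3′ ends of tRNAs, had a log2 fold change of -0.50 and Trmt10c, a subunit of the RNase P that frees their 5′ ends, of 0.30. Lrpprc and Slirp, partners that keep mRNAs stable, were at 0.48 and 0.14. Pnpt1 and Supv3l1, which degrade antisense and double-stranded mitochondrial RNA, were at 0.20 and -0.09 on the log2 scale. Pnpt1 was at 101 to 119 CPM in wild-type replicates 1 to 3, 19.1 in wild-type replicate 4 and 86.1 to 114 CPM in ΔAgo2 cells. None of these 6 genes passed, with adjusted p from 0.732 to 0.942 in edgeR. When wild-type replicate 4 was left out, Elac2 was at -0.22 and Lrpprc at 0.21, and the other 4 changed sign, with Trmt10c at -0.04, Slirp at -0.01, Pnpt1 at -0.12 and Supv3l1 at 0.10.

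The member of these lists with the smallest p was Fastk, whose mitochondrial form maintains mt-Nd6 mRNA. Fastk was at 71.5 to 136 CPM in wild-type replicates 1 to 3 and at 213 CPM in wild-type replicate 4. In ΔAgo2 cells it was at 61.6 to 70.1 CPM, so the groups did not overlap. That held for 6.07% of all genes, and for other members of these lists too. The log2 fold change of Fastk was -1.04 ± 0.33 (SE, adjusted p = 0.411 in edgeR), and -0.73 without wild-type replicate 4. Tars2, the threonyl-tRNA synthetase that charges mt-Tt, was at 34.9 to 46.4, 109 and 29.1 to 36.2 CPM in the same order, with overlapping groups. Its log2 fold change was -0.83 ± 0.37 (SE, adjusted p = 0.670 in edgeR), and -0.33 without wild-type replicate 4.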

How the data were processed

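RNA-seq of 4 wild-type and 4 ΔAgo2 LLC libraries was used, grouped by their labels. Libraries were made with a stranded mRNA kit, which selects poly(A) RNA, and sequenced in paired-end mode (100 bases). The authors aligned reads to an rRNA database and then to mm10 with STAR (named in the submitters' processing notes) and counted them with featureCounts. The authors deposited raw counts and TPM for 55487 genes. The annotation release and the strand and multi-mapping settings are not given in the sources used here. Reads that match a nuclear copy, an overlapping gene or both strands may thus have been lost or misassigned.

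Symbols and positions came from GENCODE vM21 (93 identifiers unmatched). Counts were filtered with filterByExpr, scaled with TMM and tested for genotype with edgeR 4.0.16 (R 4.3.3; quasi-likelihood, two-sided, Benjamini-Hochberg over 14228 genes); CPM use TMM-scaled totals, and standard errors are the log2 fold change over the square root of F. Totals were 39628101 to 68530912 counts. Alternatives were DESeq2 1.42.0, limma 3.58.1 on log2 TPM with pseudocounts of 1 and 0.1, other scaling and filters, the replicate block, a GC correction and each library left out. The methods were tested on simulated data.

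Nuclear copies were annotated transcripts with at least 250 aligned bases and 90% identity by blastn. These limits were set after the data were seen. Named were all 37 mt- genes, 11 chosen nuclear genes and list members with an unadjusted p under 0.05, except ribosomal ones, which were only counted. The copies, markers and ratios shown were picked beside them. The members and lists were chosen with earlier results of these data known.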

Additional observations from a re-analysis of the deposited data

Results flagged for a closer look

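In 50 groups of 4 libraries (1 gene or share in 1 genotype each), a library was looked for whose gap to the nearest of the others exceeded Dixon's 95% critical value, which chance gives for about 1 in 20 groups. Of the 50 groups, 2 held such a library, which is no more than that rate. In both it was wild-type replicate 4, already known for its low mitochondrial counts, so this is no separate result. For mt-Atp6 it stood at -1.39 on the log2(CPM + 0.01) scale, below 1.36 to 1.85 in the other wild-type libraries. For mt-Nd4 it stood at 8.33, below 10.5 to 10.7 in the others.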

How the results depend on the processing

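No member passed an adjusted p of 0.05 under any setting run, leaving out each library included, and the 8 nuclear lists are given in the report with and without wild-type replicate 4. All sign changes below are of values that did not pass, and their cause was not tested. With the GC correction mt-Rnr2 (-0.040), mt-Nd1 (-0.24) and Slirp (-0.15) changed sign on the log2 scale, as they did with the replicate block and GC correction together (-0.15, -0.069 and -0.12). In limma on log2(TPM + 1) the sign changed for mt-Tq (0.10), mt-Nd2 (0.067), mt-Tw (0.53), mt-Co1 (0.31), mt-Co2 (0.27), mt-Atp6 (0.33), mt-Co3 (0.21), mt-Nd3 (0.081), mt-Nd4 (0.36), mt-Nd5 (0.033), mt-Nd6 (0.27), mt-Cytb (0.50), mt-Tp (0.19) and Supv3l1 (0.15). On log2(TPM + 0.1) these values were 0.11, 0.067, 0.64, 0.31, 0.34, 0.46, 0.23, 0.096, 0.36, 0.033, 0.29, 0.50, 0.23 and 0.16, and mt-Atp8 was at 0.47. Scaled to the mitochondrial total, mt-Co1 (0.0051), mt-Co2 (0.075), mt-Atp6 (0.21), mt-Nd4 (0.079) and mt-Cytb (0.13) changed sign. With library totals alone mt-Nd3 (0.00060), mt-Cytb (0.021) and Supv3l1 (0.035) did, and in DESeq2 mt-Cytb (0.0034) did. Leaving out each library in turn gave log2 fold changes on both sides of 0 for mt-Rnr2 (-0.21 to 0.37), mt-Tq (-0.54 to 0.20), mt-Co2 (-0.52 to 0.25), mt-Atp6 (-0.43 to 0.20), mt-Co3 (-0.40 to 0.31), mt-Nd3 (-0.23 to 0.13), mt-Nd4 (-0.40 to 0.060), mt-Cytb (-0.31 to 0.37), Mterf3 (-0.17 to 0.39), Pnpt1 (-0.12 to 0.39), Slirp (-0.0070 to 0.26), Supv3l1 (-0.23 to 0.097), Tfb2m (-0.048 to 0.47) and Trmt10c (-0.037 to 0.50).

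The count of all tested genes that passed was 42 in the reported fit, 399 in DESeq2, 143 with no filter, 5 with a filter of 100 counts in 4 libraries, 74 with the GC correction, 71 with that and the replicate block, 15 in limma on log2(TPM + 1), and 1 to 113 with each library left out, the highest without wild-type replicate 4. The tRNA share of the mitochondrial counts, ΔAgo2 minus wild-type, was -0.0080 percentage points, and -0.17 as a share of the mitochondrial TPM.

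Same-numbered libraries deviated together with correlations of -0.14, -0.049, 0.38 and 0.028, so the numbers were not taken as pairs, and only those numbered 3 correlated best with each other. The replicate block gave 18 genes in place of 42 and 0 members, and the sign changed for mt-Tw (0.063), mt-Co1 (0.042), mt-Co2 (0.078), mt-Atp6 (0.16), mt-Co3 (0.020), mt-Nd4 (0.12) and mt-Cytb (0.27).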
